A study of Bos taurus with 6 samples.

Results

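The genes described here encode proteases that cut the extracellular matrix, cell-surface proteins or lysosomal cargo, together with the tissue inhibitors of the matrix metalloproteinases, in the fetal bovine forebrain, liver and rumen. They were chosen by symbol from the deposited count table: every MMP and ADAM followed by a number, every symbol that starts with ADAMTS, TIMP1 to TIMP4, and every cathepsin (CTS with a letter and at most 1 digit). This gave 55 of the 14179 symbols in the table, in 5 families. There were 14 MMP genes, 8 ADAM genes, 17 ADAMTS genes including the ADAMTS-like genes ADAMTSL2 and ADAMTSL4, 4 TIMP genes and 12 cathepsin genes.

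The matrix metalloproteinases (MMPs) are zinc-dependent enzymes that are made as inactive precursors and, once cleaved, degrade collagens, laminins and other matrix proteins. The TIMPs block them by binding the active site. ADAMs sit in the plasma membrane and release the outer parts of receptors and adhesion molecules, whereas ADAMTS enzymes are secreted and cut proteoglycans or the propeptides of fibrillar procollagens. Cathepsins are best known as proteases of the lysosome. In a growing fetus these enzymes are known for remodelling the matrix around vessels, epithelia, connective tissue and migrating cells.

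Each of the 3 tissues was represented by 2 poly(A) RNA-seq libraries of wild-type (WT) Holstein fetuses labelled male and 90 days old, with no treatment. The rumen is the fermentation chamber of the cattle forestomach, and the series is concerned with how it acquires its own functions. Fetuses came from 4 cows at a slaughterhouse, 2 fetuses being male and 2 female, so the 6 libraries can come from at most 2 fetuses. Which fetus gave which library is not given in the sources used here, libraries of different tissues may share a fetus, and p-values therefore measure only the spread between these libraries, which may be technical.

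Totals ran from 10271024 to 18528958 counts per library. Levels are given as CPM, the count relative to the scaled size of its library. At these depths, 3 counts summed over the pair of libraries equalled 0.115 CPM for forebrain, 0.103 CPM for liver and 0.116 CPM for rumen. The tissue labels were checked with marker genes. The summed level of 9 neuronal markers was 11819 to 12408 CPM in forebrain, 64.0 to 82.6 CPM in liver and 433 to 464 CPM in rumen. For 9 hepatocyte markers the sum was 192570 to 223710 CPM in liver, 102 to 136 CPM in forebrain and 71.1 to 79.3 CPM in rumen. The sum of 7 markers of stratified epithelium, which lines the rumen, was 11618 to 14258 CPM in rumen and at most 182 CPM in the other tissues. The samples are labelled as tissues, while the extraction protocol speaks of cells collected with a dissociation enzyme, and which of these applies to the libraries is not given in the sources used here. In either case fewer cells of a type and less RNA per cell cannot be told apart.

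The 2 liver libraries stood apart from each other. Of the 38 members with at least 20 counts over both liver libraries, 18 (47.4%) differed at least 2-fold between them, against 33.9% of all genes counted as deeply. The same was true of 3 of 32 members in forebrain (9.38%, against 5.32% of all genes) and 5 of 40 in rumen (12.5%, against 7.94%). MMP14 was 13.8-fold, ADAMTS12 11.2-fold, ADAM12 5.79-fold and MMP2 5.05-fold higher in Liver 1, while ADAMTSL2 was 3.49-fold, ADAMTS10 2.85-fold and MMP23 2.74-fold higher in Liver 2. Macrophage and microglia markers summed to 1080 CPM in Liver 1 and 465 CPM in Liver 2, and fibroblast and smooth muscle markers to 1201 and 892 CPM. Granulocyte and mast cell markers summed to 201 and 73.1 CPM, while stratified epithelium markers went the other way, at 85.6 and 182 CPM. Of the fibroblast and smooth muscle markers, DCN, ACTA2 and MYH11 were not higher in Liver 1, and the rest were. DCN was at 103.02 and 103.08 CPM, ACTA2 at 43.7 and 47.4 CPM and MYH11 at 14.6 and 19.3 CPM. The part of these cell types in the difference between the liver libraries was not tested. That a gene passed or did not pass refers to the edgeR fit of all 6 libraries described under the processing, unless another fit is named. Libraries were always left out 1 at a time, so that a call lost without either of a pair was lost in each of those fits.

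**Figure D1:**
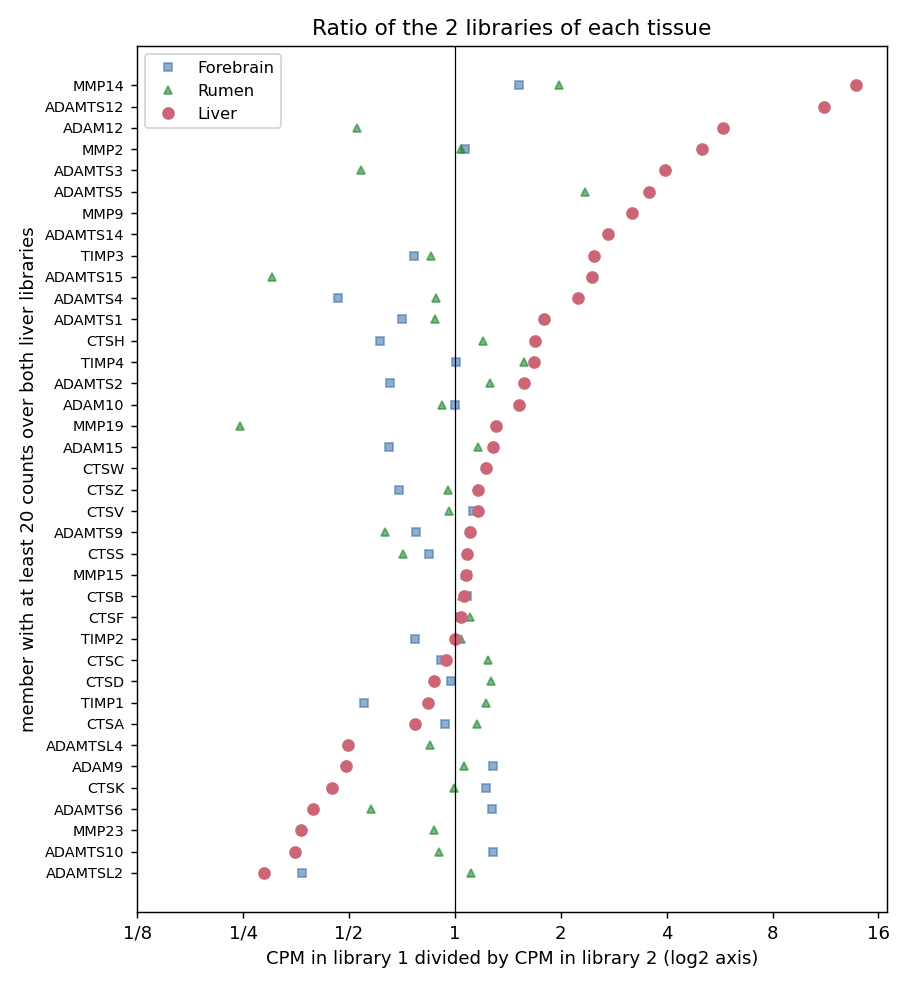
Each point is the CPM in library 1 of a tissue divided by the CPM in library 2 (horizontal log2 axis) for 1 of the 38 members with at least 20 counts over both liver libraries (circles, liver; squares, forebrain; triangles, rumen; only tissues with at least 20 counts are drawn). Liver ratios reach from ADAMTSL2, 3.49-fold higher in Liver 2, to MMP14, 13.8-fold higher in Liver 1.

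Many secreted MMPs were at or near the limit of detection in all 3 tissues. No count was recorded for the collagenase MMP1, for MMP20, an enzyme of tooth enamel formation, for MMP27 or for ADAM2, a sperm surface protein. The collagenase MMP13 had 2 counts in all, both in forebrain, and the stromelysin MMP3 had 4. The macrophage elastase MMP12 had 9 counts, all in liver. Gelatinase MMP9 was at 1.64 and 0.514 CPM in liver, had 2 counts in forebrain and none in rumen. Matrilysin MMP7 was at 3.21 and 0.468 CPM in rumen, a 6.86-fold gap between libraries, at 0.447 and 0.321 CPM in liver, and had no count in forebrain. In the RefSeq gene order of the ARS-UCD2.0 assembly, MMP13, MMP12, MMP3 and MMP1 are direct neighbours, and so are MMP27, MMP20 and MMP7.

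The filter on low counts removed those 9 genes together with ADAM32 (8 counts), ADAMTS20 (13 counts) and ADAMTS12 (52 counts, 32 of them in liver), so that 43 of the 55 members (78.2%) were tested, against 81.0% of the other genes. Since a gene could pass the filter through 1 tissue alone, the counts of differences below describe the 43 tested members and not the family as a whole.

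**Figure D2:**
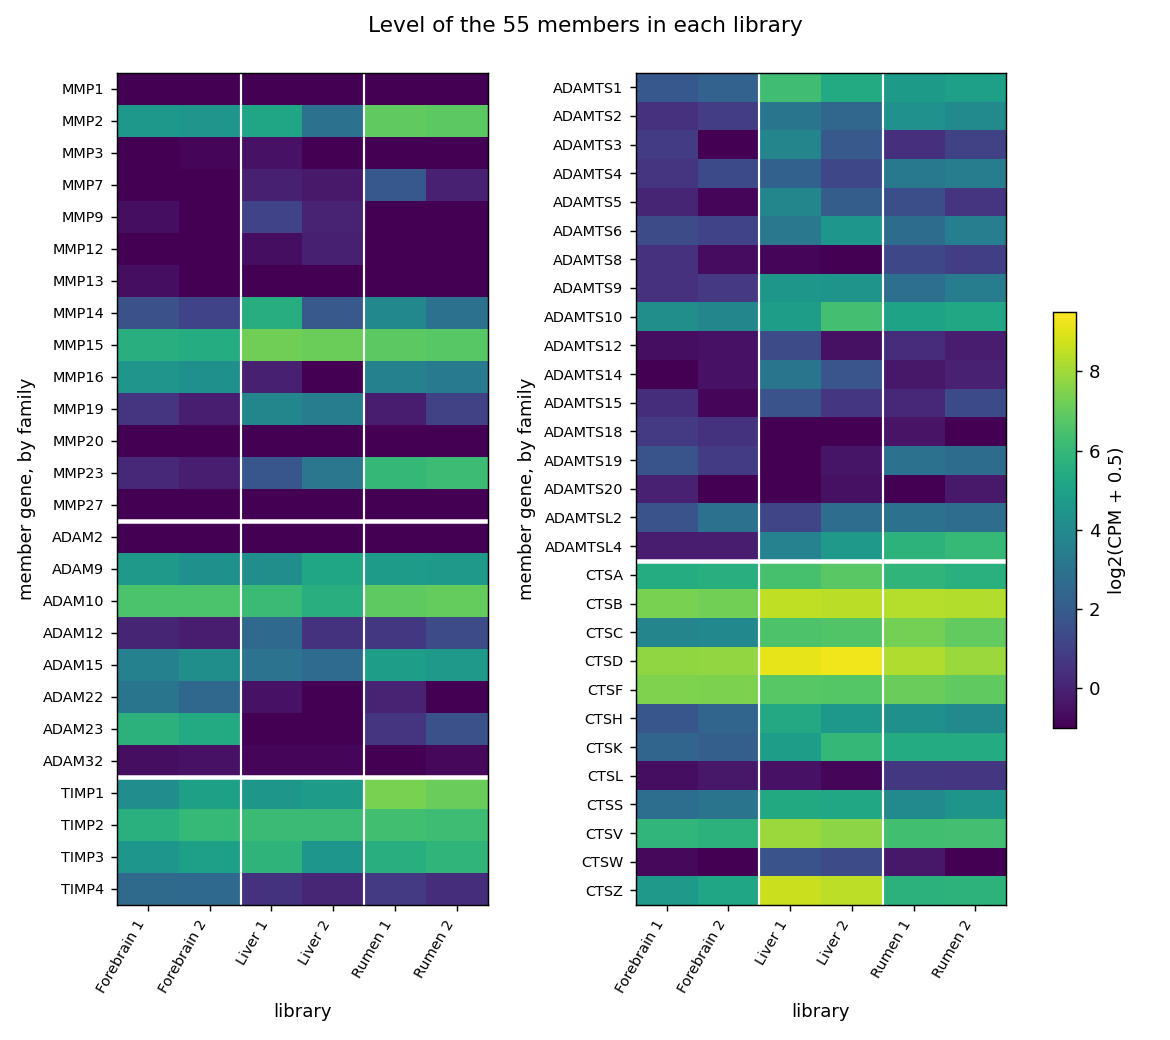
Each row is 1 of the 55 members and each column 1 library. Colour gives log2(CPM + 0.5), and levels are to be compared along a row, not between genes, because they are not per length. The 8 MMPs that were not tested are dark in nearly every library, while ADAM22, ADAM23 and TIMP4 are brightest in forebrain, CTSD, CTSV and CTSZ in liver, and MMP2, MMP23, ADAMTSL4 and TIMP1 in rumen.

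Between rumen and forebrain, 16 of the 43 tested members were higher in rumen (37.2%, against 19.5% of all tested genes) and 3 were lower (6.98%, against 19.9%), at an adjusted p under 0.05 (quasi-likelihood test of edgeR, Benjamini-Hochberg over every tested gene). The median log2 fold change of the members was 1.36 and that of all tested genes -0.01. Those higher in rumen were 6 ADAMTS, 6 cathepsin, 3 MMP and 1 TIMP genes, and those lower were ADAM22, ADAM23 and TIMP4. The count of higher members moved with the library left out, and so did the share of all genes. It was 25 without Liver 1 and 26 without Liver 2, where 29.7% and 29.6% of all tested genes were higher. It was 8 without Forebrain 1, 9 without Forebrain 2 and 10 without Rumen 1, where 7.90%, 8.57% and 9.37% of all tested genes were higher. Without either liver library, ADAM10, ADAM15, ADAMTS10, ADAMTS19, CTSV, MMP7, MMP14, TIMP2 and TIMP3 also passed as higher and CTSF and MMP16 as lower, and without Liver 2 so did ADAMTS5 as higher. Each of the 19 calls was kept when either liver library was left out, and 9 of them were kept in all 6 fits that left out 1 library. With only rumen and forebrain in the fit 26 were higher and 6 lower (32.7% and 32.9% of all tested genes). That fit gained ADAM10, ADAM15, ADAMTS5, ADAMTS10, ADAMTS19, CTSL, CTSV, MMP14, TIMP2 and TIMP3 as higher. It gained ADAMTS18, CTSF and MMP16 as lower. DESeq2-style size factors lost the call of CTSZ, and voom lost that of ADAMTS6. DESeq2 gained CTSF and voom ADAMTS18 as lower, and MMP7 was gained as higher with no filter on low counts. With a term for the replicate number in the fit (replicate block), the calls of CTSZ and TIMP4 were lost.

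Between rumen and liver, 10 members were higher in rumen (23.3%, against 20.1% of all tested genes) and 8 lower (18.6%, against 20.3%), shares near those of all genes. The median log2 fold change was -0.06 for the members (-0.055) and for all tested genes (-0.064). The families divided: 5 of 12 cathepsins were lower in rumen and none higher, whereas 3 of 6 tested ADAMs were higher and none lower. Without Liver 2, 15 members were lower in rumen, against 29.6% of all tested genes, and those gained were ADAMTS1, ADAMTS3, ADAMTS5, CTSH, CTSW, MMP9 and MMP14. Without Liver 1, ADAMTS2, ADAMTS4, MMP14 and TIMP3 were gained as higher and ADAMTS6 and ADAMTS10 as lower. Without Rumen 1, 4 were higher and 2 lower (10.4% and 9.20% of all tested genes), and without Rumen 2, 6 were higher and 3 lower (10.7% and 8.58%). With either forebrain library left out, 4 were lower, against 13.6% of all tested genes in both fits. With only rumen and liver in the fit the calls of ADAM10, ADAMTS9, CTSA, CTSS and MMP2 were lost and 5 members were lower (15.7% of all tested genes). Upper-quartile factors lost ADAMTS9, and ADAMTS8 was lost with no filter on low counts. Upper-quartile factors gained ADAMTS2 and CTSC as higher. DESeq2 gained ADAMTS2 and CTSC as higher and ADAMTS1 as lower, and the last was also gained with no filter on low counts. Voom gained ADAMTS2, ADAMTS4 and CTSL as higher and CTSW as lower. The replicate block lost ADAMTS8, ADAMTS9, ADAMTS14 and CTSA.

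Between liver and forebrain, 22 members were higher in liver (51.2%, against 29.4% of all tested genes) and 8 lower (18.6%, against 25.9%). The median log2 fold change of the members was 1.63, and that of all tested genes 0.14. Cathepsins made up 10 of the 22, ADAMTS genes 8 and MMPs 4. Without Forebrain 2, 14 members were higher, against 15.9% of all tested genes. Lower members numbered 2 without either forebrain library, against 15.6% and 15.0% of all tested genes, and 5 without either rumen library, against 21.7% and 21.6%. Without Liver 1, ADAM9 was gained as higher and ADAM10 and MMP2 as lower, and without Liver 2, ADAM12, ADAMTS3, ADAMTS12, MMP2 and TIMP3 were gained as higher. With only liver and forebrain in the fit the calls of ADAM15, ADAMTS10, ADAMTS19 and MMP14 were lost. Voom lost ADAMTS10 and MMP14, and ADAMTS18 was lost under DESeq2 and with no filter on low counts. ADAM10 was gained as lower under DESeq2-style size factors and under DESeq2. DESeq2 gained ADAM12 and ADAMTS3 as higher, and voom gained ADAMTS3. The replicate block lost ADAM15, ADAMTS18, ADAMTS19 and CTSF. These 3 comparisons share libraries, so each is given for its own values.

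**Figure D3:**
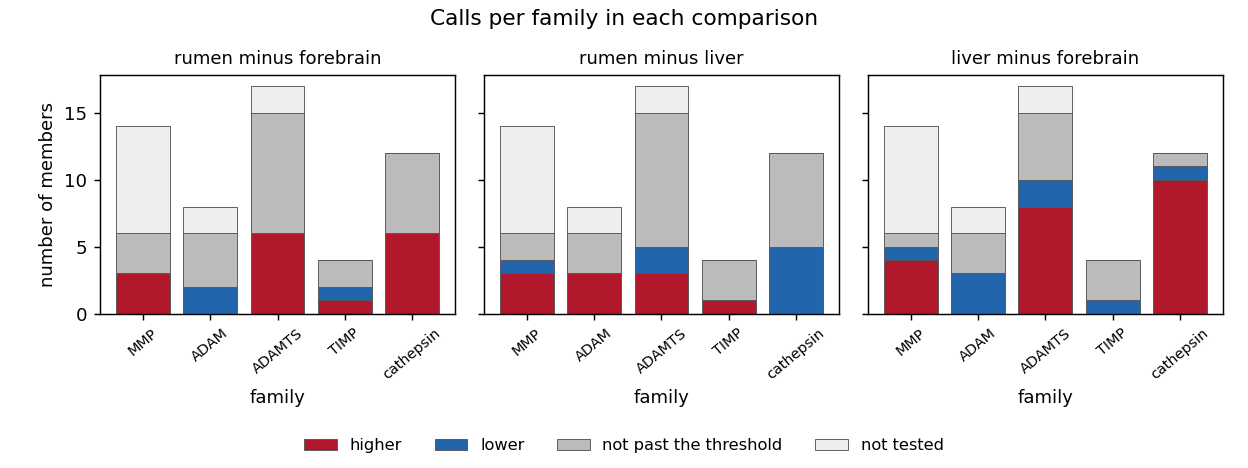
Stacked bars give the number of members of each family that were higher, lower, not past the threshold or not tested in each comparison (edgeR adjusted p under 0.05). In liver minus forebrain 10 of 12 cathepsins are higher, and in rumen minus liver 5 are lower and none higher.

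**Figure D4:**
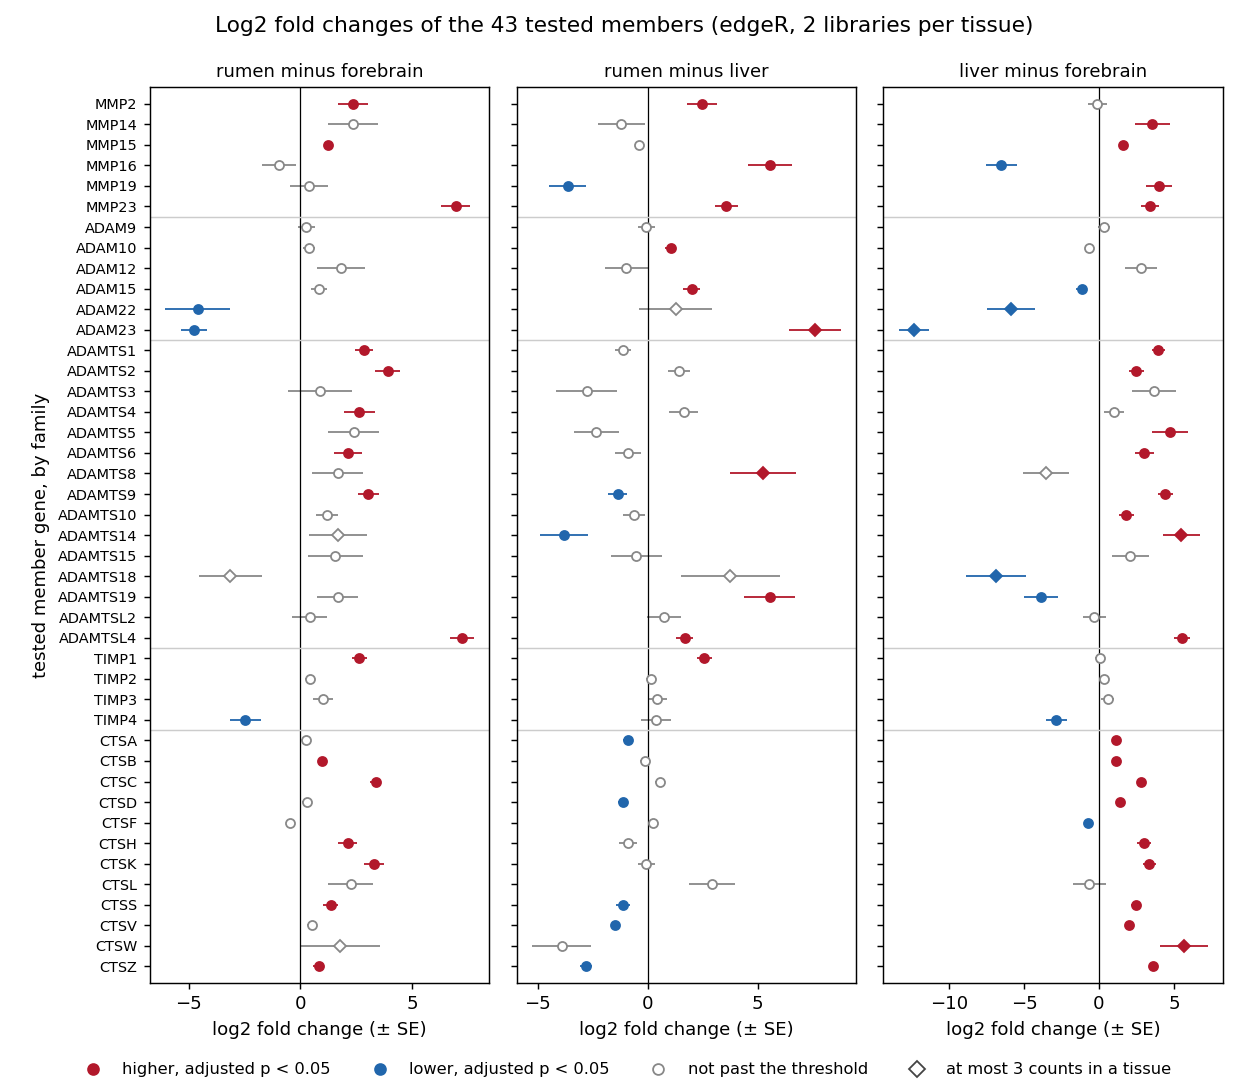
Points are edgeR log2 fold changes of the 43 tested members with their standard errors, 1 panel per comparison. Filled points passed the adjusted p threshold. Diamonds have at most 3 counts in 1 of the tissues compared, where the fitted value depends on the prior count and is no bound. MMP23 and ADAMTSL4 lie farthest to the right in rumen minus forebrain, and ADAM23 farthest to the left in liver minus forebrain.

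Of the MMPs, MMP2 and MMP23 were highest in rumen. MMP2 (gelatinase A) cleaves basement membrane collagen and denatured collagen. It was at 23.5 and 21.9 CPM in forebrain, 35.4 and 7.00 CPM in liver and 120.45 and 115 CPM in rumen. Both rumen libraries lay above all others, while the liver libraries lay on either side of forebrain. MMP2 was 5.19-fold higher in rumen than in forebrain (log2 fold change 2.38 ± 0.67 SE, edgeR adjusted p = 0.0324) and 5.58-fold higher than in liver (2.48 ± 0.68, adjusted p = 0.028). Both calls were lost when Forebrain 1, Forebrain 2, Rumen 1 or Rumen 2 was left out (adjusted p up to 0.162 and 0.106), and both were kept without either liver library. Liver and forebrain did not differ beyond the spread (log2 fold change -0.10 ± 0.65, adjusted p = 0.905), but the difference was -1.70 without Liver 1 (adjusted p = 8.32e-05) and 0.63 without Liver 2 (adjusted p = 0.012), past the threshold in opposite directions.

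MMP23, a membrane-linked MMP without the usual cysteine switch, had the largest fold change of the tested MMPs. Its level was 0.651 and 0.433 CPM in forebrain, 3.05 and 8.35 CPM in liver and 63.8 and 73.0 CPM in rumen. The 3 tissues did not overlap. It was 125-fold higher in rumen than in forebrain (log2 fold change 6.97 ± 0.65, edgeR adjusted p = 0.000633), 11.9-fold higher in rumen than in liver (adjusted p = 0.00274) and 10.5-fold higher in liver than in forebrain (adjusted p = 0.00395). All 3 calls were kept in each of the 6 fits that left out 1 library.

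The membrane-type MMPs each had their own pattern. MMP14, which activates pro-MMP2 at the cell surface, was at 2.52 and 1.66 CPM in forebrain, 46.2 and 3.34 CPM in liver and 14.3 and 7.26 CPM in rumen. Liver 1 held the highest and Liver 2 the lowest level outside forebrain, so that the liver pair enclosed both rumen libraries. With all 6 libraries in the fit, MMP14 passed the threshold between liver and forebrain alone (11.8-fold higher in liver, log2 fold change 3.56 ± 1.18, edgeR adjusted p = 0.04), and that call was lost when Liver 1 or any forebrain or rumen library was left out (adjusted p up to 0.351). With only the 2 tissues in the fit this call was also lost (adjusted p = 0.072), while rumen was higher than forebrain (2.40, adjusted p = 0.00129). Rumen minus liver was -1.20 ± 1.06 (adjusted p = 0.402) with both liver libraries, 1.69 (adjusted p = 0.0437) without Liver 1 and -2.10 (adjusted p = 0.00173) without Liver 2. In RefSeq MMP14 overlaps RBM23, which was at 68.6 and 95.5 CPM in liver and at 30.0 to 36.1 CPM elsewhere.

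MMP15, another membrane-type MMP, was at 48.4 and 44.6 CPM in forebrain, 149 and 139 CPM in liver and 115 and 107 CPM in rumen. Its replicates were close and no tissues overlapped. It was 3.10-fold higher in liver (log2 fold change 1.63 ± 0.21, edgeR adjusted p = 0.00099) and 2.39-fold higher in rumen (1.26 ± 0.20, adjusted p = 0.00457) than in forebrain, while rumen and liver did not pass (-0.38 ± 0.20, adjusted p = 0.182). The rumen call was lost without either forebrain library (adjusted p up to 0.0622).

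MMP16, a membrane-type MMP expressed in brain, was at 21.6 and 19.0 CPM in forebrain, 0.447 and 0 CPM in liver and 11.9 and 9.21 CPM in rumen. It was nearly absent from liver, with 6 counts there. It was 91.4-fold lower in liver than in forebrain (edgeR adjusted p = 0.00244) and 47.5-fold higher in rumen than in liver (adjusted p = 0.00611), and both calls were kept in all 6 fits that left out 1 library. Rumen lay below forebrain in both libraries without passing (log2 fold change -0.95 ± 0.75, adjusted p = 0.353). With only the 2 tissues in the fit this difference passed (-0.92, adjusted p = 0.0106).

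MMP19, a secreted MMP that degrades basement membrane components, was at 1.06 and 0.433 CPM in forebrain, 13.8 and 10.5 CPM in liver and 0.383 and 1.56 CPM in rumen. Only the liver libraries stood out. It was 16.2-fold higher in liver than in forebrain (log2 fold change 4.02 ± 0.87, edgeR adjusted p = 0.00875) and 12.4-fold lower in rumen than in liver (-3.63 ± 0.85, adjusted p = 0.0165). The first call was lost without Forebrain 2 (adjusted p = 0.0756) and the second without Rumen 1 (adjusted p = 0.0794).

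Among the inhibitors, TIMP1 was the one highest in rumen. This secreted inhibitor, which binds pro-MMP9, was at 17.1 and 31.0 CPM in forebrain, 23.2 and 27.6 CPM in liver and 166 and 135 CPM in rumen. The forebrain libraries enclosed the liver pair, and both rumen libraries were far above. TIMP1 was 6.26-fold higher in rumen than in forebrain (log2 fold change 2.65 ± 0.35, edgeR adjusted p = 0.00206) and 5.91-fold higher than in liver (2.56 ± 0.35, adjusted p = 0.00204), and both calls were kept whichever library was left out. TIMP1 lies within the span of SYN1 in RefSeq, and SYN1, a synaptic vesicle gene, was at 115 and 130 CPM in forebrain, 3.20 and 4.50 CPM in liver and 12.1 and 11.7 CPM in rumen.

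TIMP4 went the other way. It was at 5.61 and 5.56 CPM in forebrain, 0.968 and 0.578 CPM in liver and 1.22 and 0.780 CPM in rumen. Forebrain was above both other tissues, whose libraries overlapped each other. TIMP4 was 5.53-fold lower in rumen (log2 fold change -2.47 ± 0.69, edgeR adjusted p = 0.0309) and 7.18-fold lower in liver (-2.84 ± 0.70, adjusted p = 0.0143) than in forebrain. Leaving out either forebrain library ended both calls, and leaving out either rumen library ended the rumen call. In RefSeq TIMP4 overlaps SYN2, which has no row in the deposited count table.

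TIMP2 and TIMP3 passed in no comparison. TIMP2, which takes part with MMP14 in activating pro-MMP2, was at 49.6 and 64.4 CPM in forebrain, 71.1 and 70.9 CPM in liver and 79.2 and 76.1 CPM in rumen. Its differences were small, with a rumen minus forebrain log2 fold change of 0.45 ± 0.23 (edgeR adjusted p = 0.165). TIMP3, which binds to the matrix and also inhibits ADAMs, was at 22.6 and 29.6 CPM in forebrain, 55.6 and 22.4 CPM in liver and 48.9 and 57.2 CPM in rumen. The liver libraries spanned nearly the whole range of the other tissues, and rumen minus forebrain was 1.02 ± 0.44 (adjusted p = 0.114). With only the 2 tissues in the fit, TIMP2 (0.47, adjusted p = 0.0283) and TIMP3 (1.04, adjusted p = 0.000617) passed in rumen minus forebrain.

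The 4 members highest in rumen against both other tissues were MMP2, MMP23, ADAMTSL4 and TIMP1, where 7.01% of all tested genes were highest in rumen. The summed level of 11 fibroblast and smooth muscle markers was 20974 to 21762 CPM in rumen. It was 183 to 268 CPM in forebrain and 892 to 1201 CPM in liver. Of these markers, 9 were higher and none lower in rumen than in forebrain. Against liver, 10 were higher in rumen and 1 was lower (PDGFRB, 18.2-fold, edgeR adjusted p = 0.000851). None of the 11 was at 0. The part of these cells in the rumen levels of these 4 genes was not tested. The number of members highest in rumen was 2 without Rumen 1 or Rumen 2, where 2.76% and 3.07% of all tested genes were. It was 11 without Liver 1 and 8 without Liver 2, where the share of all tested genes was 10.8% and 12.6%.

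**Figure D5:**
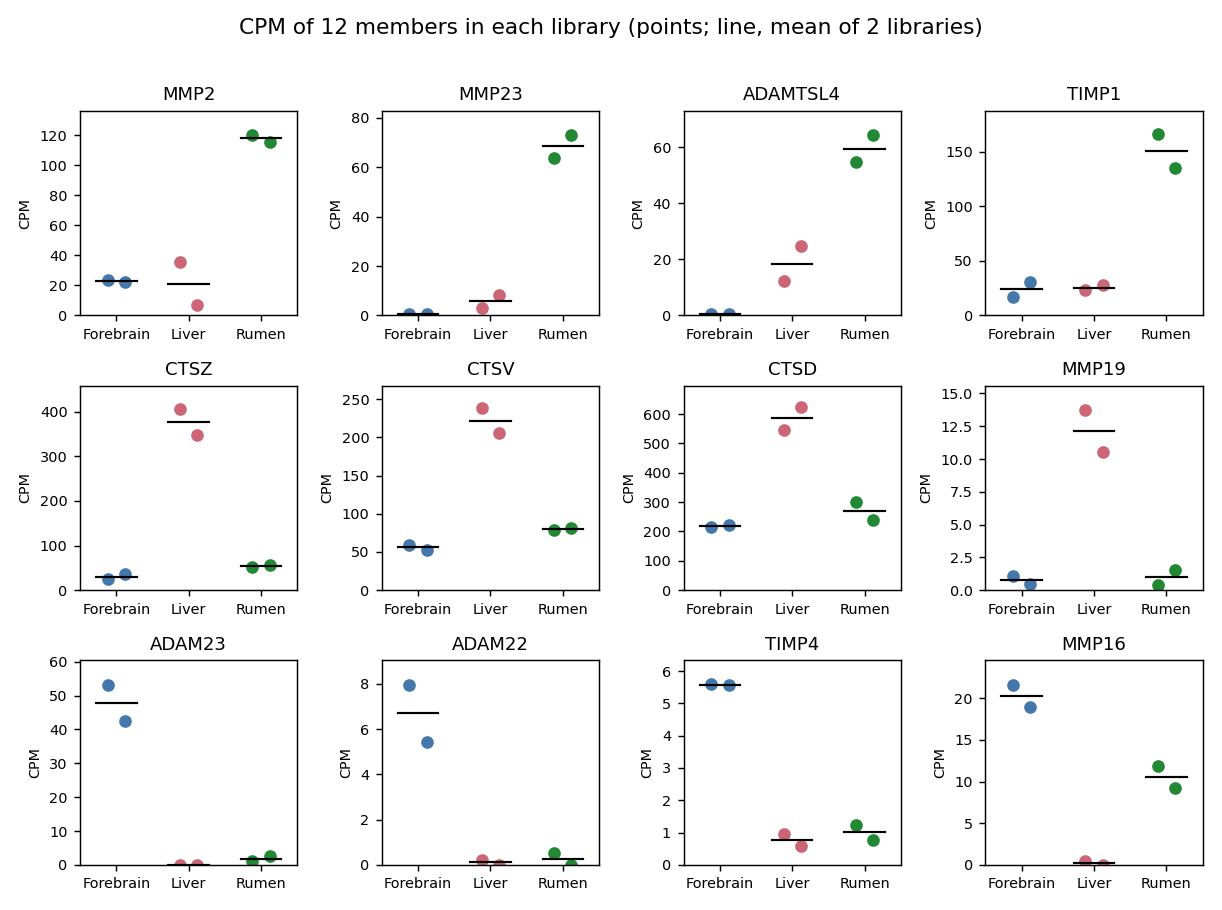
Points are the CPM of each library (linear axes from 0) for 12 members, and lines are the means of 2 libraries. In the top row the rumen points lie above all others, in the middle row the liver points, and in the bottom row forebrain is highest, with rumen between forebrain and liver for MMP16.

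Of the 4 tested ADAMs with protease activity, ADAM10 and ADAM15 passed in at least 1 comparison, and ADAM9 and ADAM12 in none. Under DESeq2, ADAM12 passed as higher in liver than in forebrain (2.72, adjusted p = 0.0489). ADAM10, which cleaves Notch receptors, cadherins and the amyloid precursor protein, was at 92.9 CPM in each forebrain library, 71.8 and 47.0 CPM in liver and 117 and 128 CPM in rumen. The tissues did not overlap, with rumen highest and liver lowest. It was 2.06-fold higher in rumen than in liver (log2 fold change 1.04 ± 0.26, edgeR adjusted p = 0.0215), a call lost without any forebrain or rumen library (adjusted p up to 0.119), and it passed in neither comparison with forebrain. With only the 2 tissues in the fit the call against liver was lost (adjusted p = 0.0552), while rumen was higher than forebrain (0.42, adjusted p = 0.0213). Liver was lower than forebrain under DESeq2-style size factors (-0.73, adjusted p = 0.0484) and under DESeq2 (-0.73, adjusted p = 0.0241).

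ADAM9, a membrane sheddase, was at 24.3 and 19.0 CPM in forebrain, 17.9 and 36.6 CPM in liver and 27.1 and 25.4 CPM in rumen. The liver pair enclosed all other libraries, and it passed nowhere (edgeR adjusted p from 0.497 to 0.93). ADAM15, a membrane ADAM implicated in cell adhesion, was at 11.8 and 18.1 CPM in forebrain, 7.52 and 5.84 CPM in liver and 28.9 and 24.9 CPM in rumen. The 3 tissues did not overlap, with liver lowest and rumen highest. It was 4.03-fold higher in rumen than in liver (log2 fold change 2.01 ± 0.38, adjusted p = 0.00778; lost without Rumen 1, adjusted p = 0.0605). It was 2.24-fold lower in liver than in forebrain (-1.16 ± 0.38, adjusted p = 0.0376), a call lost without any forebrain or rumen library.

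The 2 tested ADAMs that lack protease activity were highest in forebrain. ADAM22 and ADAM23 are neuronal surface proteins that bind the secreted protein LGI1 at synapses. ADAM23 was at 53.3 and 42.6 CPM in forebrain, had no count in either liver library and was at 0.995 and 2.58 CPM in rumen. Against liver, forebrain was at least 460-fold higher (edgeR adjusted p = 0.000406) and rumen at least 17.2-fold higher (adjusted p = 0.00539), with 3 counts over both liver libraries as the floor. ADAM23 was 26.7-fold lower in rumen than in forebrain (log2 fold change -4.74 ± 0.59, adjusted p = 0.00279), and all 3 calls were kept whichever library was left out.

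ADAM22 was at 7.97 and 5.41 CPM in forebrain, 0.223 and 0 CPM in liver and 0.536 and 0 CPM in rumen. Outside forebrain it had 3 counts in liver and 7 in rumen. It was 24.1-fold lower in rumen than in forebrain (log2 fold change -4.59 ± 1.46, edgeR adjusted p = 0.0468), and the ratio of liver to forebrain was 0.0156 (exact 95% counting interval 0.00319 to 0.0465, adjusted p = 0.0208). Both calls were lost without either forebrain library, and the rumen call also without either rumen library (adjusted p up to 0.237).

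ADAM22, ADAM23 and TIMP4 were the 3 members highest in forebrain against both other tissues, and 14.6% of all tested genes were. Of the 9 neuronal markers, 8 were lower in rumen and 9 lower in liver than in forebrain, and TUBB3, ELAVL4, SLC17A6, GAD1 and DCX were at 0 in liver. In rumen SLC17A6 and GAD1 were at 0, while 5 of the 9 markers were higher there than in liver. The part of neurons in the levels of these 3 genes, or in the rumen levels of ADAM23 and MMP16, was not tested. The number of members highest in forebrain was 5 without either liver library, where 21.9% and 20.6% of all tested genes were, and 1 without any forebrain or rumen library, where the share ran from 6.10% to 7.05%.

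The ADAMTS genes were lowest in forebrain as a summed level, at 35.1 and 37.1 CPM, against 203 and 217 CPM in liver and 177 and 198 CPM in rumen. ADAMTS1 cleaves versican and aggrecan. It was at 3.17 and 4.47 CPM in forebrain, 77.0 and 42.8 CPM in liver and 26.1 and 29.8 CPM in rumen. Liver was above rumen and rumen above forebrain in every library. It was 15.6-fold higher in liver (log2 fold change 3.96 ± 0.41, edgeR adjusted p = 0.00046) and 7.28-fold higher in rumen (2.86 ± 0.40, adjusted p = 0.0025) than in forebrain, and both calls were kept whichever library was left out. Rumen minus liver did not pass (-1.10 ± 0.36, adjusted p = 0.0518). It passed under DESeq2 (-1.07, adjusted p = 0.0281) and with no filter on low counts (-1.10, adjusted p = 0.0495).

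ADAMTS9, another proteoglycanase of developing vessels and mesenchyme, was at 0.894 and 1.15 CPM in forebrain, 23.2 and 21.0 CPM in liver and 6.66 and 10.5 CPM in rumen. The order was the same as for ADAMTS1 and no tissues overlapped. It was 21.4-fold higher in liver (edgeR adjusted p = 0.00062) and 8.30-fold higher in rumen (adjusted p = 0.00391) than in forebrain in every fit that left out 1 library. It was 2.57-fold lower in rumen than in liver (log2 fold change -1.36 ± 0.43, adjusted p = 0.0436), a call lost without any forebrain or rumen library (adjusted p up to 0.22).

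The other tested proteoglycanases were ADAMTS4, ADAMTS5, ADAMTS8 and ADAMTS15. ADAMTS4 was 6.27-fold higher in rumen than in forebrain (edgeR adjusted p = 0.0247), with 9.11 and 10.3 CPM against 0.976 and 2.09 CPM, a call lost without any forebrain or rumen library. ADAMTS5 was 26.7-fold higher in liver than in forebrain (adjusted p = 0.0148; lost without Forebrain 2, adjusted p = 0.0895), at 13.5 and 3.79 CPM against 0.569 and 0.0722 CPM. In RefSeq ADAMTS5 and ADAMTS1 are neighbouring genes. ADAMTS8 was at 1.91 and 1.40 CPM in rumen with 1 count in liver, a ratio of 48.2 (exact 95% counting interval 8.20 to 1947, adjusted p = 0.0318), and that call was lost in 5 of the 6 fits that left out 1 library, being kept only without Liver 1. ADAMTS15, its neighbour in RefSeq, passed nowhere.

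ADAMTSL4, which has no protease domain and binds fibrillin microfibrils, had the largest difference of all tested members between rumen and forebrain. Its level was 0.407 and 0.361 CPM in forebrain, 12.2 and 24.6 CPM in liver and 54.6 and 64.3 CPM in rumen. No tissues overlapped. It was 152-fold higher in rumen than in forebrain (log2 fold change 7.25 ± 0.54, edgeR adjusted p = 0.000371) and 47.0-fold higher in liver than in forebrain (5.55 ± 0.52, adjusted p = 0.000306). It was 3.23-fold higher in rumen than in liver (1.69 ± 0.39, adjusted p = 0.0151), and that last call alone was lost without Rumen 1 or Rumen 2 (adjusted p up to 0.0993). ADAMTSL2, the other ADAMTS-like gene, passed nowhere.

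The procollagen N-proteinases trim fibrillar procollagens. ADAMTS2 was at 0.894 and 1.37 CPM in forebrain, 7.89 and 5.01 CPM in liver and 19.3 and 15.3 CPM in rumen. The order was forebrain, liver, rumen, without overlap. It was 15.1-fold higher in rumen (log2 fold change 3.92 ± 0.55, edgeR adjusted p = 0.00256) and 5.63-fold higher in liver (2.49 ± 0.52, adjusted p = 0.00764; lost without Forebrain 1, adjusted p = 0.0694) than in forebrain. Rumen minus liver did not pass (1.42 ± 0.48, adjusted p = 0.0564). It passed under upper-quartile factors (1.57, adjusted p = 0.0447), DESeq2 (1.45, adjusted p = 0.0158) and voom (1.47, adjusted p = 0.0263). The ADAMTS substrate COL1A1, whose procollagen ADAMTS2 trims, was 318-fold higher in rumen than in forebrain (adjusted p = 0.000489).

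ADAMTS14, from the same subgroup, was highest in liver. It was at 0 and 0.217 CPM in forebrain, 8.04 and 2.95 CPM in liver and 0.306 and 0.468 CPM in rumen. Both liver libraries lay above all others. The ratio of liver to forebrain, which had 3 counts, was 46.3 (exact 95% counting interval 15.5 to 227, edgeR adjusted p = 0.0107; lost without Forebrain 1, adjusted p = 0.0731). It was 13.9-fold lower in rumen than in liver (log2 fold change -3.80 ± 1.11, adjusted p = 0.0349), and that call was lost in 5 of the 6 fits that left out 1 library, being kept only without Liver 2. ADAMTS3, the remaining gene of this subgroup, was at 13.2 and 3.34 CPM in liver and passed nowhere in the edgeR fit. In liver minus forebrain it passed under DESeq2 (3.59, adjusted p = 0.0371) and voom (4.91, adjusted p = 0.0444).

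ADAMTS10, which acts on fibrillin microfibrils, was at 17.6 and 13.8 CPM in forebrain, 28.6 and 81.4 CPM in liver and 33.8 and 37.6 CPM in rumen. The liver pair enclosed the rumen libraries. It was 3.50-fold higher in liver than in forebrain (log2 fold change 1.81 ± 0.50, edgeR adjusted p = 0.0214; lost without either forebrain library) and did not pass in the other comparisons. With only the 2 tissues in the fit that call was lost (adjusted p = 0.0537), while rumen was higher than forebrain (1.21, adjusted p = 0.000428). ADAMTS6, a related enzyme, was at 2.11 and 1.66 CPM in forebrain, 8.78 and 22.3 CPM in liver and 6.12 and 10.6 CPM in rumen. It was 8.21-fold higher in liver (3.04 ± 0.65, adjusted p = 0.00816) and 4.42-fold higher in rumen (2.14 ± 0.63, adjusted p = 0.0366) than in forebrain. Both ADAMTS6 calls were lost without either forebrain library and the rumen call also without either rumen library, and the gene overlaps CWC27 in RefSeq, which was at 11.0 to 27.6 CPM in the 6 libraries.

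ADAMTS19 and ADAMTS18 were the ADAMTS genes lower in liver than in forebrain. ADAMTS19 was at 2.85 and 1.30 CPM in forebrain, 0 and 0.257 CPM in liver and 7.19 and 6.09 CPM in rumen. Rumen lay above forebrain and forebrain above liver. It was 46.4-fold higher in rumen than in liver (log2 fold change 5.54 ± 1.17, edgeR adjusted p = 0.0115; lost without Rumen 1, adjusted p = 0.0568) and 14.5-fold lower in liver than in forebrain (adjusted p = 0.0273; lost without any forebrain or rumen library). ADAMTS18 was at 1.22 and 0.938 CPM in forebrain, had no count in liver and 3 counts in rumen. Forebrain was at least 10.4-fold above liver (adjusted p = 0.0308), a call lost without any forebrain or liver library (adjusted p up to 0.189).

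The summed level of the 12 cathepsins was 714 and 717 CPM in forebrain, 1954 and 1962 CPM in liver and 1067 and 1188 CPM in rumen. CTSZ, a carboxypeptidase also called cathepsin X, changed most between liver and forebrain among the 5 cathepsins with the highest mean level. It was at 25.0 and 36.0 CPM in forebrain, 406 and 348 CPM in liver and 52.8 and 55.4 CPM in rumen. Liver was far above the other tissues, and rumen above forebrain. CTSZ was 12.4-fold higher in liver than in forebrain (log2 fold change 3.63 ± 0.28, edgeR adjusted p = 0.000147) and 6.97-fold lower in rumen than in liver (-2.80 ± 0.26, adjusted p = 0.00059), in every fit that left out 1 library. The 1.77-fold difference between rumen and forebrain (0.83 ± 0.25, adjusted p = 0.0407) was lost without any forebrain or rumen library (adjusted p up to 0.262).

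CTSD, the aspartic protease of the lysosome, was at 216 and 221 CPM in forebrain, 546 and 625 CPM in liver and 301 and 239 CPM in rumen. Liver was highest, and rumen lay just above forebrain. It was 2.67-fold higher in liver than in forebrain (log2 fold change 1.42 ± 0.22, edgeR adjusted p = 0.00249), a call kept whichever library was left out. It was 2.17-fold lower in rumen than in liver (-1.12 ± 0.22, adjusted p = 0.00906), lost without Rumen 1 or Rumen 2 (adjusted p up to 0.108). Rumen and forebrain did not pass (0.30 ± 0.22, adjusted p = 0.314).

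CTSV, a cysteine cathepsin close in sequence to CTSL, was at 59.6 and 52.9 CPM in forebrain, 239 and 205 CPM in liver and 78.7 and 81.8 CPM in rumen. Liver again stood alone. It was 3.95-fold higher in liver than in forebrain (log2 fold change 1.98 ± 0.22, edgeR adjusted p = 0.000551) and 2.77-fold lower in rumen than in liver (-1.47 ± 0.21, adjusted p = 0.0027), in every fit that left out 1 library. CTSL had only 39 counts in all and passed nowhere in the edgeR fit of all 6 libraries. It passed in rumen minus liver under voom (2.88, adjusted p = 0.0351). In rumen minus forebrain it passed with only the 2 tissues in the fit (2.27, adjusted p = 0.0429). Reads of such similar copies may be split between them, so both values are uncertain.

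CTSB and CTSC were high in both liver and rumen. CTSB, a lysosomal cysteine protease, was at 166 and 154 CPM in forebrain, 359 and 338 CPM in liver and 325 and 310 CPM in rumen. It was 2.18-fold higher in liver (log2 fold change 1.12 ± 0.20, edgeR adjusted p = 0.00386; lost without Forebrain 2, adjusted p = 0.0539) and 1.98-fold higher in rumen (0.99 ± 0.20, adjusted p = 0.0095; lost without any forebrain or rumen library) than in forebrain. Rumen and liver did not pass (-0.14 ± 0.20, adjusted p = 0.606). CTSC, which activates granule serine proteases, was 10.4-fold higher in rumen (adjusted p = 0.000345) and 7.09-fold higher in liver (adjusted p = 0.000205) than in forebrain, with 13.1 to 14.3 CPM in forebrain, 94.2 to 100.1 CPM in liver and 127 to 158 CPM in rumen.

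Of the other cysteine cathepsins, CTSK, the collagen-degrading enzyme of osteoclasts, was 10.3-fold higher in liver (edgeR adjusted p = 0.00125) and 9.86-fold higher in rumen (adjusted p = 0.00234) than in forebrain. CTSH was 8.01-fold higher in liver (adjusted p = 0.002) and 4.35-fold higher in rumen (adjusted p = 0.0107; lost without Forebrain 1 or Rumen 1). CTSS, known from antigen-presenting cells, was 5.61-fold higher in liver (adjusted p = 0.00116) and 2.57-fold higher in rumen (adjusted p = 0.0168; lost without Forebrain 1, Forebrain 2 or Rumen 2). CTSS was also 2.18-fold lower in rumen than in liver (adjusted p = 0.0291; lost without any forebrain or rumen library).

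CTSF was the cathepsin lower in liver than in forebrain. It was at 178 and 172 CPM in forebrain, 109.5 and 105 CPM in liver and 135 and 122 CPM in rumen. The replicates were close and the tissues did not overlap. The liver difference was 1.63-fold (log2 fold change -0.70 ± 0.20, edgeR adjusted p = 0.023; lost without any forebrain or rumen library, adjusted p up to 0.144). Rumen minus forebrain did not pass (-0.44 ± 0.20, adjusted p = 0.122). It passed with only the 2 tissues in the fit (-0.42, adjusted p = 0.0219) and under DESeq2 (-0.50, adjusted p = 0.0239).

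CTSA, a serine carboxypeptidase that protects lysosomal glycosidases, was 2.18-fold higher in liver than in forebrain (edgeR adjusted p = 0.00776; lost without either forebrain library). It was 1.85-fold lower in rumen than in liver (adjusted p = 0.0255; lost without any forebrain or rumen library). It overlaps PLTP in RefSeq, which was highest in rumen and lowest in liver, at 100.3 and 109 CPM in forebrain, 19.7 and 14.9 CPM in liver and 381 and 367 CPM in rumen. CTSW, a cathepsin of cytotoxic lymphocytes, was at 0.0813 and 0 CPM in forebrain, 2.68 and 2.18 CPM in liver and 0.306 and 0 CPM in rumen. The ratio of liver to forebrain, which had 1 count, was 63.1 (exact 95% counting interval 11.0 to 2528, adjusted p = 0.0224; lost without either forebrain library). CTSW overlaps FIBP in RefSeq, which was at 42.7 to 83.2 CPM in the 6 libraries.

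The 8 members highest in liver against both other tissues were CTSA, CTSD, CTSS, CTSV, CTSZ, ADAMTS9, ADAMTS14 and MMP19, where 15.1% of all tested genes were. Markers of macrophages, lymphocytes, endothelium and granulocytes are given beside them. The 10 of 12 macrophage and microglia markers in the table summed to 465 to 1080 CPM in liver, 69.2 to 107 CPM in forebrain and 39.5 to 42.2 CPM in rumen, where ITGAM was at 0. Of these, 6 were higher and none lower in liver than in forebrain, and 9 were lower in rumen than in liver. Lymphocyte markers summed to 23.3 to 34.8 CPM in liver and at most 8.42 CPM elsewhere, with PRF1 at 0 in all 3 tissues. Endothelial markers, 9 in all, summed to 659 to 864 CPM in liver, 142 to 190 CPM in forebrain and 301 to 331 CPM in rumen, with 4 higher and none lower in liver than in forebrain, 1 higher and 3 lower in rumen than in liver, and none at 0. The 10 of 13 granulocyte and mast cell markers in the table summed to 73.1 to 201 CPM in liver, 151 to 219 CPM in forebrain and 565 to 570 CPM in rumen. S100A12, at 501 and 451 CPM, and KIT, at 55.8 and 104 CPM, made up most of the rumen sum. KIT, at 206 and 141 CPM in forebrain, made up most of the forebrain sum. Of the 9 tested granulocyte and mast cell markers, 6 were higher and 1 lower in liver than in forebrain, and 2 were higher and 6 lower in rumen than in liver. CEBPE and CAMP were at 0 in forebrain and rumen, and MPO, S100A8 and CPA3 in rumen. The part of these cells in the liver levels of the 8 members was not tested. The number of members highest in liver was 4 without Forebrain 1, 3 without Forebrain 2, 2 without Rumen 1 and 3 without Rumen 2, where 9.12%, 8.91%, 7.76% and 7.43% of all tested genes were. It was 14 without Liver 2, where the share was 21.7%.

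Genes that work with these proteases were counted from lists. The counts are to be read against all tested genes, of which 19.5% were higher and 19.9% lower in rumen minus forebrain (median log2 fold change -0.01), 20.1% and 20.3% in rumen minus liver (-0.06), and 29.4% and 25.9% in liver minus forebrain (0.14). Of 13 other inhibitors, 5 were higher and 4 lower in rumen than in forebrain (median log2 fold change 1.60), 6 higher and 2 lower in rumen than in liver (1.49), and 4 higher and 7 lower in liver than in forebrain (-2.01). The shares higher and lower were 38.5% and 30.8%, 46.2% and 15.4%, and 30.8% and 53.8% in that order. A2M, a plasma inhibitor that traps proteases, was at 19.3 and 21.5 CPM in forebrain, 884 and 890.1 CPM in liver and 86.1 and 67.9 CPM in rumen. It was 43.5-fold higher in liver than in forebrain (edgeR adjusted p = 6.06e-05) and 11.5-fold lower in rumen than in liver (adjusted p = 0.000264). CST3, a secreted inhibitor of cysteine cathepsins, had the reverse order, at 1909 and 2299 CPM in forebrain, 64.8 and 34.7 CPM in liver and 266 and 186 CPM in rumen. It was 42.3-fold lower in liver (adjusted p = 0.000171) and 9.30-fold lower in rumen (adjusted p = 0.00151) than in forebrain. RECK, a membrane-anchored MMP inhibitor, was at 5.37 and 2.53 CPM in forebrain, 3.95 and 0.193 CPM in liver and 8.95 and 15.0 CPM in rumen. It passed in no comparison with all 6 libraries in the fit, and in rumen minus forebrain with only the 2 tissues in the fit (1.63, adjusted p = 0.00837). The serine protease inhibitor SPINT1 was 19.8-fold higher in rumen than in forebrain, SPINT2 52.4-fold higher in rumen than in liver, and the cystatin CSTA at least 24.1-fold lower in rumen and at least 27.0-fold lower in liver than in forebrain. The CSTA calls were lost without either forebrain library, and the rumen one also without either rumen library and with the replicate block.

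Of 20 activators and other matrix proteases, 10 were higher and none lower in rumen than in forebrain (median log2 fold change 1.66, or 1.49 with genes at 0 set to their bounds). In rumen minus liver 5 were higher and 3 lower (0.69), and in liver minus forebrain 10 were higher and 3 lower (1.40). The share higher was 50.0%, 25.0% and 50.0% in that order, against 19.5%, 20.1% and 29.4% of all tested genes. Plasminogen (PLG), the liver-made precursor of plasmin, was at least 15035-fold higher in liver than in forebrain (edgeR adjusted p = 0.000137) and 10403-fold lower in rumen than in liver. In rumen PLG had 4 counts, at 0.306 CPM in Rumen 1 and 0 CPM in Rumen 2. ST14 (matriptase), an epithelial serine protease, was 22.3-fold higher in rumen than in liver, and MME (neprilysin) at least 37.3-fold lower in liver than in forebrain (lost without either forebrain library). FAP, a protease of activated fibroblasts, was 35.0-fold higher in rumen than in forebrain (adjusted p = 0.0456; lost without any forebrain or rumen library).

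Of 12 partners of ADAM10 and ADAM17, 3 were higher and 2 lower in rumen than in forebrain (median log2 fold change 0.02), none higher and 3 lower in rumen than in liver (-0.38), and 5 higher and 1 lower in liver than in forebrain (0.31). These were shares of 25.0% and 16.7% in the first comparison, 0% and 25.0% in the next and 41.7% and 8.33% in the last, where all tested genes gave 19.5% and 19.9%, 20.1% and 20.3%, and 29.4% and 25.9%. ADAM10 has a row in the deposited count table, whereas ADAM17 has none. The tetraspanin TSPAN15, which steers ADAM10 to cadherins, was 14.5-fold higher in rumen (edgeR adjusted p = 0.0019) and 15.8-fold higher in liver (adjusted p = 0.000933) than in forebrain. TSPAN33 was 7.25-fold lower in rumen than in forebrain and 4.92-fold lower than in liver (lost without Rumen 1 or Rumen 2), and TSPAN5 7.92-fold lower in liver than in forebrain (lost without Forebrain 1).

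Of 12 substrates of ADAM10 and ADAM17, 2 were higher and 6 lower in rumen than in forebrain (median log2 fold change -1.98), 5 higher and 3 lower in rumen than in liver (0.76), and 2 higher and 8 lower in liver than in forebrain (-2.62). The share lower was 50.0%, 25.0% and 66.7% in that order, against 19.9%, 20.3% and 25.9% of all tested genes. CDH1 (E-cadherin) had a ratio of 464 between rumen and forebrain (exact 95% counting interval 82.8 to 18360) and of 177 between liver and forebrain (31.4 to 7016; lost without Forebrain 2). For the neuronal adhesion molecule L1CAM the ratio was 0.000227 between liver and forebrain (5.75e-06 to 0.00127) and 1102 between rumen and liver (197 to 43555). TNF was at least 7.92-fold lower in rumen than in forebrain (lost without any forebrain or rumen library) and at least 5.95-fold lower than in liver (edgeR adjusted p = 0.0498; lost in 5 of the 6 fits that left out 1 library, being kept only without Liver 1). The TNF calls were also lost with no filter on low counts and with the replicate block, and the liver one under both other scalings.

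Of 13 tested ADAMTS substrates, 8 were higher and 3 lower in rumen than in forebrain (median log2 fold change 2.76), 7 higher and 2 lower in rumen than in liver (4.01, or 2.75 with genes at 0 set to their bounds), and 5 higher and 4 lower in liver than in forebrain (0.27). Of the list 61.5%, 53.8% and 38.5% were higher in that order, against 19.5%, 20.1% and 29.4% of all tested genes. The brain proteoglycan brevican (BCAN) was 598-fold lower in rumen (edgeR adjusted p = 0.00177) and at least 2971-fold lower in liver (adjusted p = 0.000675) than in forebrain. In rumen BCAN had 13 counts, at 0 CPM in Rumen 1 and 1.01 CPM in Rumen 2. FBN2, a microfibril protein, was 48.0-fold higher in rumen than in liver, and RELN (reelin) 15.4-fold lower in rumen than in liver. VWF, the clotting factor cleaved by ADAMTS13, which has no row in the count table, was 50.9-fold higher in liver than in forebrain. Each of these calls was kept whichever library was left out.

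Of 23 lysosomal genes beside the cathepsins, 6 were higher and 6 lower in rumen than in forebrain (median log2 fold change 0.29), 3 higher and 8 lower in rumen than in liver (-0.71), and 10 higher and 4 lower in liver than in forebrain (0.74). These were shares of 26.1% and 26.1%, 13.0% and 34.8%, and 43.5% and 17.4%, where all tested genes gave 19.5% and 19.9%, 20.1% and 20.3%, and 29.4% and 25.9%. IGF2R, the receptor that sorts mannose-6-phosphate-tagged enzymes to lysosomes, was 21.2-fold higher in liver (edgeR adjusted p = 9.79e-05) and 7.70-fold higher in rumen (adjusted p = 0.000643) than in forebrain. ATP6V1H, a subunit of the proton pump, was 7.47-fold lower in liver and 4.40-fold lower in rumen than in forebrain. GAA (acid glucosidase) was 7.48-fold lower in rumen than in liver (lost without Rumen 1 or Rumen 2), and ASAH1 (acid ceramidase) 2.07-fold higher (adjusted p = 0.0272; lost without any forebrain or rumen library, and with only the 2 tissues in the fit).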

How the data were processed

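The values used were the authors' deposited raw counts per gene symbol, whole numbers, 1 column per library, with every column matched to its label. Per the labels' protocols, libraries were made with the NEBNext Ultra kit. The submitters' processing notes name HISAT2 2.0.5, featureCounts 1.5.0-p3 and edgeR 3.18.1. Which build, annotation and strandedness the counting used is not given in the sources used here, and reads from overlapping genes therefore cannot be told apart.

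The test was run in R 4.3.3 with edgeR 4.0.16: TMM scaling, filterByExpr (11478 genes kept), a quasi-likelihood fit of all 6 libraries with 1 mean per tissue (3 residual degrees of freedom), and Benjamini-Hochberg adjustment over all tested genes with a threshold of 0.05. CPM used the total times the TMM factor. A standard error is the log2 fold change divided by the square root of the F statistic. A fold against a tissue with no counts is a bound against 3 counts in both its libraries, and with 1 to 3 counts a ratio of pooled CPM with its exact 95% interval, which covers counting error only. The scripts were tested on simulated data. Alternatives used limma 3.58.1 (voom) and DESeq2 1.42.0.

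Described in full are every TIMP, the 5 members per other family with the highest mean CPM, and the 3 members with the largest change in each direction and comparison. From the lists of related genes these are RECK, A2M, CST3 and, per list, the gene with the largest change in each direction and comparison. MMP9, MMP7, CTSC, CTSK, CTSH, CTSS, CTSA and the remaining ADAMTS genes were named after their values were seen. The members and lists were chosen with earlier results of these data known. RefSeq (ARS-UCD2.0) served for gene names, overlaps and neighbours, and all 55 members were found by symbol. No sequence was used here.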

Additional observations from a re-analysis of the deposited data

How the results depend on the processing

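All of these results rest on 2 libraries per tissue and 3 residual degrees of freedom. Calls of members kept in all 6 fits that left out 1 library were 9 of 19 in rumen minus forebrain, 6 of 18 in rumen minus liver and 14 of 30 in liver minus forebrain. Over those fits the members higher and lower ranged from 8 to 26 and from 1 to 5 in rumen minus forebrain, from 4 to 14 and from 2 to 15 in rumen minus liver, and from 14 to 27 and from 2 to 9 in liver minus forebrain. The members highest in forebrain ranged from 1 to 5, in liver from 2 to 14 and in rumen from 2 to 11. With only the 2 tissues compared in the fit, 26 members were higher and 6 lower in rumen minus forebrain, and 5 were lower in rumen minus liver. The named values that reversed with a difference past the threshold were MMP14 in rumen minus liver without Liver 1 (1.69, against -2.10 without Liver 2), MMP2 in liver minus forebrain without Liver 2 (0.63, against -1.70 without Liver 1) and TSPAN15 in rumen minus liver without Liver 2 (0.67, against -0.63 without Liver 1). Their cause was not tested. TSPAN15 in rumen minus liver also changed sign under upper-quartile factors (0.05, against -0.12), past the threshold in neither. Correlations of replicate differences were 0.079 between forebrain and liver, -0.076 between forebrain and rumen and 0.008 between liver and rumen. They cannot decide whether libraries of the same replicate number share a fetus, because a fetus effect may be small beside the other spread. With the replicate block, a term for the replicate number in the fit, 5 members were highest in liver, against 13.2% of all tested genes. In that fit 5 were lower in rumen minus liver, against 17.5% of all tested genes. In liver minus forebrain 4 were lower, against 23.6%. Upper-quartile scaling moved the median log2 fold change of all tested genes in rumen minus liver from -0.06 to 0.05, and no called member changed direction under it, DESeq2-style size factors, DESeq2, voom or other filters. Alternatives for the named genes of the related lists were chosen after seeing the data. Members with under 10 counts in all (8 genes) were below what this depth can compare.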
